A study of Mus musculus with 5 samples.

Results

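The genes described here encode the chains of collagens and laminins and the subunits of integrins, in lungs of bleomycin-treated mice. They were chosen by symbol in the platform's gene table, as collagen chains, laminin alpha, beta and gamma chains, and every symbol that begins with Itga or Itgb. The array carried 76 such symbols on 82 features. Of these, 51 symbols had at least 1 feature with a value on 4 or more of the 5 arrays and were kept, out of 10081 genes and unnamed features kept in all. They comprised 27 collagens, 9 laminins and 15 integrin-named genes, 43 of them with a value in every mouse and 8 in 4 mice. A further 14 symbols had values on 1 to 3 arrays and 11 had none. Among the 11 without any value were Col1a2, the second chain of type I collagen, and Itgb5 and Itgb7.

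Each of the 5 arrays compared RNA amplified from the lungs of 1 bleomycin-treated mouse of the inbred strain 129svJ with 1 shared pool of amplified lung RNA from control 129svJ mice. Bleomycin is an antitumour antibiotic that cleaves DNA and, in the lung, provokes injury followed by fibrosis. The sources used here do not give the dose, route, time after treatment, sex, age, dyes or the number of mice pooled, and the pool serves as the only control sample. The deposited value is 1 log ratio of both channels per feature, taken as log2 because no source names the base. With natural logarithms each fold given here would be larger.

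Which channel was the numerator is not settled, so values are described as lying below or above 0, and never as higher or lower in treated lung. The labels name the mouse before the pool. The macrophage markers C1qb and C1qa averaged −2.69 and −2.11, 4 of 5 measured macrophage markers passed the test below 0 and the other, Mrc1, passed above 0 (mean 0.58, limma adjusted p = 0.0075), and all 3 measured endothelial markers passed above 0. Skeletal muscle markers differed widely between mice, with medians of −4.55, −3.30, 0.14, −0.32 and −3.01 in mice 1 to 5. The arrays held between 11350 and 12083 values, and the values carry no signal level, so the number of arrays limits the precision. Over the kept members, pairs of arrays correlated with Pearson's r between 0.68 and 0.89 (51 genes, 10 pairs), a description across genes that also holds the pool common to all arrays. In whole lung RNA, fewer cells of a type and less RNA per cell cannot be told apart.

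Collagens are trimers of polypeptide chains that wind into a triple helix. The fibrillar types I, III and V form the tensile fibres of lung interstitium and of scar, whereas type IV collagen and the laminins build the basement membrane under epithelium and endothelium. Laminins are cross-shaped trimers of 1 alpha, 1 beta and 1 gamma chain. Integrins, dimers of an alpha and a beta subunit, are the main cell surface receptors for both, and some also activate latent TGF-beta.

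Each gene's mean log ratio was tested against 0 with limma, with Benjamini-Hochberg adjustment over all 10081 genes and unnamed features, and an adjusted p under 0.05 is called past the threshold. Of the 51 members, 28 missed the threshold, and those that passed comprised 12 below 0 and 11 above 0. That is 45.1% of members, against 49.7% of everything tested, of which 24.1% lay below and 25.6% above. The median log2 ratio of the members was −0.01, beside −0.0092 for all genes tested, and the median sizes were 0.21 and 0.21. As a whole the members therefore did not differ more often than the rest of the array. Every measured mouse lay on 1 side of 0 for 28 members, or 54.9%, against 57.3% of everything tested.

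The families divided differently between the sides. Of 27 collagens, 9 lay below 0 and 3 above, and of 9 laminins, 0 lay below and 5 above by limma (2 below and 5 above at an unadjusted p under 0.05). Of 15 integrin-named genes, 3 lay on each side. Medians were −0.07 for collagens, 0.21 for laminins and −0.03 for integrins. The differences between these counts were not tested. Leaving out mouse 2 or mouse 4 left 7 members above 0 in place of 11. Because every array shares the pool, differences among control mice do not enter this test. The labels name no dye swap, so a dye effect alike on all arrays cannot be told apart from a treatment difference in any setting used here. When the pool was treated as a single control mouse as variable as the treated ones, 4.95% of everything tested still passed (2.08% below 0 and 2.87% above). The members among these were Col5a3, Col15a1, Col3a1 and Col5a1, all below 0, and 0 lay above by limma (at an unadjusted p under 0.05, 9 below and 2 above). When a difference of more than 1.2-fold was required, 18.4% of everything tested passed (8.15% below and 10.2% above), and 10 members did, 8 of them below 0. At least 2-fold from 0 and past the threshold were 3 members below 0 and 1 above, against 5.58% of everything tested.

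**Figure D1:**
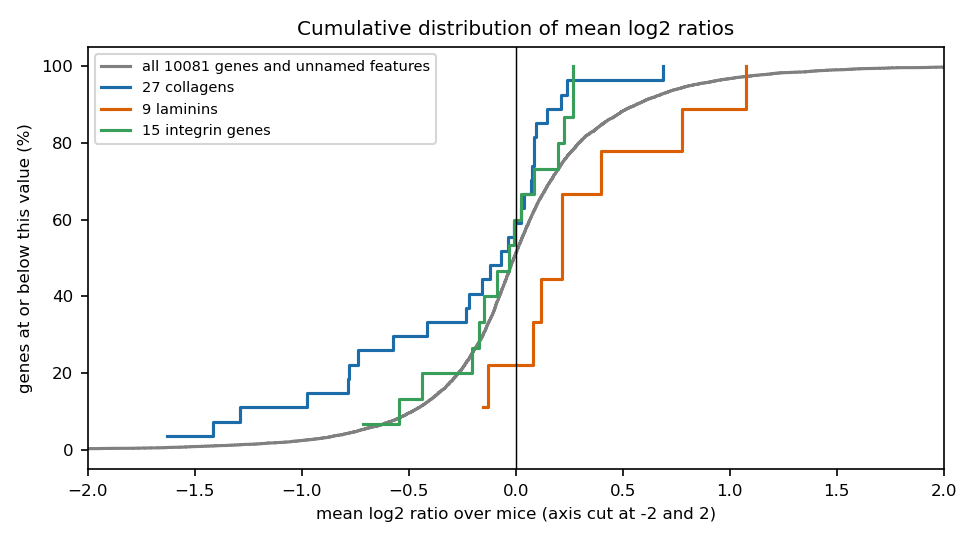
Cumulative share of genes (vertical axis, percent) at or below each mean log2 ratio (horizontal axis, drawn from −2 to 2) for all 10081 genes and unnamed features, 27 collagens, 9 laminins and 15 integrin-named genes. The collagen line runs left of the others at its low end, where Col5a3 stands at −1.63, and the laminin line runs to the right, with medians of −0.07 and 0.21.

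Among fibrillar collagens, all 3 measured chains of type V and the single chain of type III lay below 0, while Col1a1 did not pass. Of 8 measured members, 4 were below 0 and 1 above 0, with a median of −0.43. That is 62.5% past the threshold, against 49.7% of everything tested. Col5a3, a chain of type V collagen, which sits within type I fibrils and sets their width, stood at −1.79, −1.44, −1.42, −1.81 and −1.70 in mice 1 to 5. Its mean was −1.63 ± 0.19 (SD, n = 5; a 3.1-fold difference; limma adjusted p = 2.56e-05; adjusted p = 0.011 with the pool as 1 mouse), the 63rd lowest of all 10081. Col3a1, the only chain of type III collagen and abundant in elastic tissues, stood at −1.35, −1.02, −1.36, −1.37 and −1.35. Apart from mouse 2 these values lay between −1.37 and −1.35, and the mean was −1.29 ± 0.15 (limma adjusted p = 2.96e-05). Col5a1, the chain present in most type V trimers, stood at −0.88, −0.79, −1.06, −1.04 and −1.10, with a mean of −0.98 ± 0.14 (limma adjusted p = 6.16e-05). Every mouse lay well below 0 for these 3 genes. Col5a2 spread more, at −0.41, −0.36, −0.87, −0.89 and −1.15, and averaged −0.74 ± 0.34 (limma adjusted p = 0.0027). Mice 1 and 2 were nearest to 0 for both Col5a1 and Col5a2.

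Col1a1, the major chain of skin, bone and scar collagen, stood at −0.41, −0.39, 0.05, 0.83 and 0.02 in mice 1 to 5. Mice 1 and 2 lay below 0 and mouse 4 far above the rest, so the mean of 0.02 ± 0.50 (limma adjusted p = 0.925; 95% interval −0.39 to 0.44) had no settled side, and it was −0.18 without mouse 4. Col27a1, a fibrillar collagen of cartilage, was above 0 at 0.22, 0.12, 0.13, 0.50 and 0.21. Its mean of 0.24 ± 0.15 (limma adjusted p = 0.0242) no longer passed when mouse 4 or mouse 5 was left out (0.0512 and 0.0579). The cartilage chains Col2a1 and Col11a2 averaged 0.08 and −0.12 and did not pass.

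The 250 bases before the start of the genes whose calls also held with the pool as 1 mouse are shown from RefSeq (build GRCm38.p6), 5′ to 3′ on the gene's strand, because these 4 collagens lay below 0 together. The lung arrays name no build, so these coordinates belong to the RefSeq table. Capitals mark the motifs searched on both strands, namely TATAAA (the letters of the TATA box), CCAAT (bound by NF-Y), GGGCGG (bound by Sp1) and TGANTCA (bound by AP-1). The windows are chr9:20815068-20815317 on the minus strand for Col5a3, chr4:47207762-47208011 on the plus strand for Col15a1, chr1:45311288-45311537 on the plus strand for Col3a1 and chr2:27886175-27886424 on the plus strand for Col5a1.
Col5a3: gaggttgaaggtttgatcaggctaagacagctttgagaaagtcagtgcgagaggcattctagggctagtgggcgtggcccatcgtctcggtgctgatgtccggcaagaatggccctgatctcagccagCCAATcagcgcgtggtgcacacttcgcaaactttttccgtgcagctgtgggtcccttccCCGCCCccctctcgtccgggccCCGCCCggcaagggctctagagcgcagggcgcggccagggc
Col15a1: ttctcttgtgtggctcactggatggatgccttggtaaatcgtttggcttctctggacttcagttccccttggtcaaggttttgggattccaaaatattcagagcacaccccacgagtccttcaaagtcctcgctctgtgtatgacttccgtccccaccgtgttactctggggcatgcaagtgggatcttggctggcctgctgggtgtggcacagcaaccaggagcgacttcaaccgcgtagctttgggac
Col3a1: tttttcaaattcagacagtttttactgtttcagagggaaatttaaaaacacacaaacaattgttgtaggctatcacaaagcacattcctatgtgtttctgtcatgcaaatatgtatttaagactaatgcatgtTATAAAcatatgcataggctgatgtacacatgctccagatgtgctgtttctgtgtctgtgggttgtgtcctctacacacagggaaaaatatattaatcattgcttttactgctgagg
Col5a1: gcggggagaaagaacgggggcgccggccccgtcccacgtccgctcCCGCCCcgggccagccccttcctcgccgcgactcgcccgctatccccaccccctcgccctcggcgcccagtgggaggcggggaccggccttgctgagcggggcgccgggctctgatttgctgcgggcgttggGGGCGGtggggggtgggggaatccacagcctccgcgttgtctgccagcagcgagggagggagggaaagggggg

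The 4 windows share no motif of this search. Col5a3 holds 1 CCAAT and 2 GGGCGG matches, Col5a1 2 GGGCGG matches, Col3a1 1 TATAAA match and Col15a1 none. The TATAAA match of Col3a1 lies at −117 to −112 from the start, and whether it acts as a TATA box was not tested. The GC content of the 4 windows also differs, from 35.2% at Col3a1 and 53.6% at Col15a1 to 62.8% at Col5a3 and 76.4% at Col5a1. Of the 51 members, 36 had a window in the RefSeq table, 19 of them (52.8%) with GGGCGG and 9 (25.0%) with CCAAT, against 32.9% and 34.5% of 27025 windows in all. TATAAA stood in 4 member windows (11.1% against 13.0%) and TGANTCA in 2 (5.56% against 6.87%). GGGCGG was present in 6 of 10 windows of members below 0, 3 of 6 above 0 and 10 of 20 that did not pass. The share of G and C differed between member windows and the table, with medians of 60.0% and 52.0%, and GGGCGG consists of these letters alone.

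In the basement membrane and network group, 2 of 5 measured collagens lay below 0 and 0 above by limma (3 and 0 at an unadjusted p under 0.05), with a median of −0.22. The share of everything tested was 24.1% below 0 by limma. Both collagens past the threshold, Col15a1 and Col18a1, are multiplexins, which carry heparan or chondroitin sulfate chains and release antiangiogenic fragments. Col15a1, found where basement membrane meets interstitium, stood at −1.34, −1.66, −1.48, −1.30 and −1.30. Its mean was −1.42 ± 0.15 (SD, n = 5; a 2.67-fold difference; limma adjusted p = 2.56e-05; adjusted p = 0.011 with the pool as 1 mouse). Col18a1, the precursor of endostatin, stood at −0.29, −0.52, −0.62, −0.51 and −0.15. All mice lay below 0, at a mean of −0.42 ± 0.19 (limma adjusted p = 0.0045). The 2 type IV chains kept for the test were close to 0. Col4a2, a chain of the common type IV collagen, averaged −0.01 ± 0.27, with mice 4 and 5 above 0 and the others below, and Col4a4, a chain of alveolar and glomerular basement membrane, 0.08 ± 0.16. Col8a1, of vessel wall, averaged −0.22 ± 0.23 and also missed the threshold (limma adjusted p = 0.0755), but passed without mouse 2, at −0.28 (adjusted p = 0.0491).

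Type VI collagen, which forms beaded filaments around cells, passed the test below 0 in 2 of its 4 measured chains, beside 24.1% of everything tested. Col6a2 stood at −0.55, −1.27, −0.83, −0.48 and −0.77, with a mean of −0.78 ± 0.31 (limma adjusted p = 0.0015). Col6a1 stood at 0.02, −0.84, −0.94, −0.72 and −0.41. Mouse 1 was just above 0 while the other mice lay below it, and the mean was −0.58 ± 0.39 (limma adjusted p = 0.012; adjusted p = 0.065 with an ordinary one-sample test). Col6a3, the long chain, averaged −0.23 ± 0.26 and did not pass. Col6a4 averaged −0.03. On the genome, Col6a1 and Col6a2 are neighbours, as are Col3a1 and Col5a2, and both chains of each of these pairs lay below 0. Itgam and Itgax are the third neighbouring pair among the members, and of these Itgax passed.

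Type IX collagen, a trimer that decorates type II fibrils of cartilage, was split. Col9a2 stood at −0.87, −0.77, −0.50 and −0.996 in mice 1 to 4 and had no value in mouse 5. Its mean was −0.78 ± 0.21 (SD, n = 4; limma adjusted p = 0.00107). Col9a3 lay above 0 in every mouse, at 0.50, 0.66, 0.92, 0.76 and 0.61, with a mean of 0.69 ± 0.16 (limma adjusted p = 0.000327). Col9a1 averaged 0.09 ± 0.09 in 4 mice and did not pass. The gap between Col9a2 and Col9a3 within an array averaged −1.49 ± 0.18 over 4 mice (95% interval −1.77 to −1.21) and had the same sign in all 4. The other members of this class, which link fibrils to their surroundings, did not pass: Col12a1 averaged 0.07, Col14a1 0.08 and Col16a1 −0.16. Transmembrane collagens did not pass either. Col17a1, of hemidesmosomes, averaged 0.15 ± 0.15, Col13a1 0.04 and Col23a1 −0.07 ± 0.49, the last with values from −0.67 in mouse 1 to 0.59 in mouse 4. Col26a1 was above 0 at 0.09, 0.26, 0.38, 0.16 and 0.18 (mean 0.21 ± 0.11, limma adjusted p = 0.0198), but no longer passed when mouse 2 or mouse 3 was left out (0.0637 and 0.0602).

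**Figure D2:**
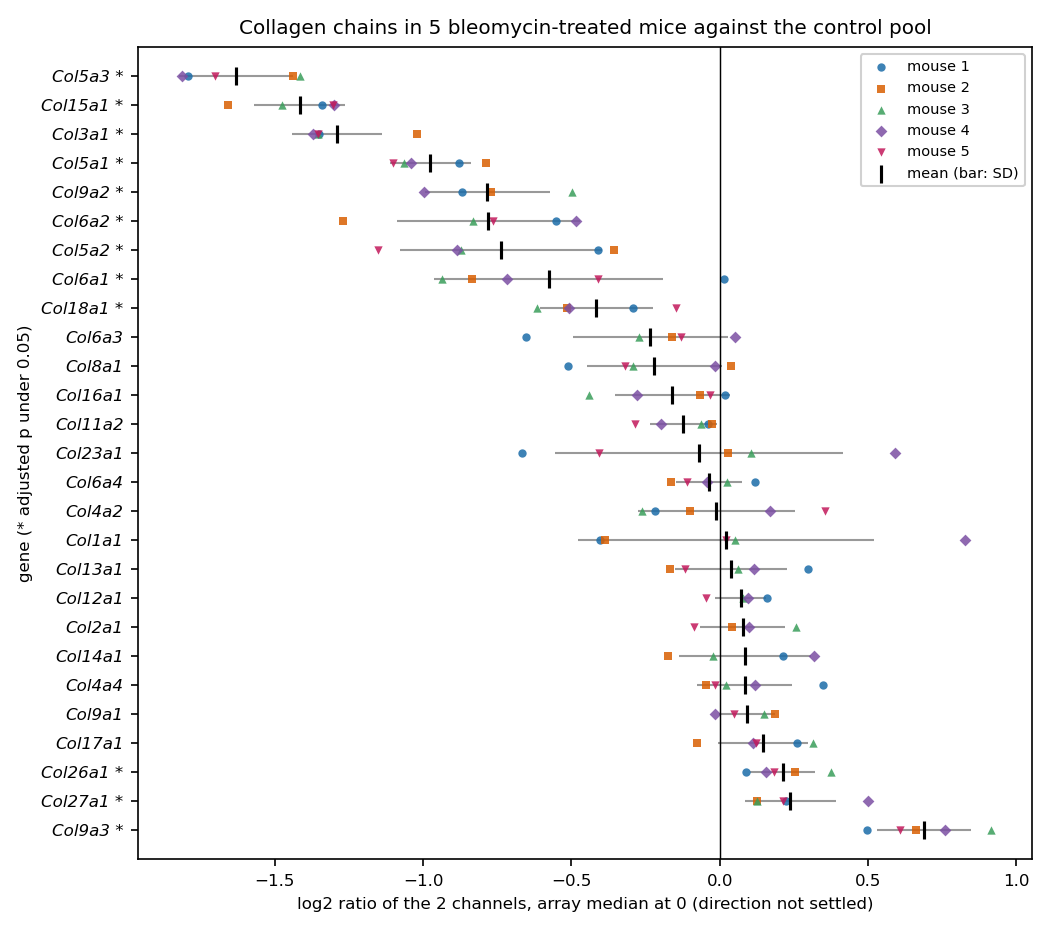
Log2 ratio of both channels (horizontal axis) for each of 27 collagens (vertical axis, ordered by mean), with 1 symbol per mouse, a black tick at the mean and a grey bar of 1 SD. Asterisks mark limma adjusted p under 0.05. Col5a3, Col15a1 and Col3a1 lie beyond −1 in every mouse, whereas Col1a1 runs from −0.41 to 0.83.

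The collagens depend on enzymes and chaperones that modify, fold, cleave and cross-link them. Of 31 such genes listed from textbook roles, 19 were measured, of which 7 passed below 0 and 5 above 0, with a median of −0.03. Of everything tested, 24.1% passed below 0 and 25.6% above. Those below 0 included oxidases that cross-link fibres outside the cell. Loxl1 stood at −0.76, −0.71, −1.08, −0.77 and −0.86 (mean −0.84 ± 0.15, limma adjusted p = 0.000131) and Lox at −0.69, −0.62, −1.45, −0.93 and −0.45 (mean −0.83 ± 0.39, limma adjusted p = 0.0027). All mice lay below 0 for both. Those farthest above 0 were Pcolce2, an enhancer of procollagen cleavage, and Serpinh1, the chaperone HSP47 of the procollagen helix. Pcolce2 stood at 2.33, 2.28, 1.52, 1.66 and 1.89 (mean 1.94 ± 0.36, limma adjusted p = 6.6e-05). Serpinh1 stood at 0.80, 0.98, 0.54, 1.42 and 1.21, a mean of 0.99 ± 0.34 (limma adjusted p = 0.000815). The prolyl hydroxylase subunit P4ha2, needed for a stable helix, averaged 0.76 ± 0.08. Beside the collagens, all 5 measured of 6 listed fibroblast markers passed the threshold. Pdgfra, Dpt and Pdgfrb averaged −0.36, −0.27 and −0.21 and Tcf21 and Dcn 0.93 and 1.93, and their part in the collagen values was not tested. With the pool as 1 mouse, Loxl1 passed below 0, and Pcolce2, P4ha2 and the foldase Fkbp7 passed above 0.

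**Figure D3:**
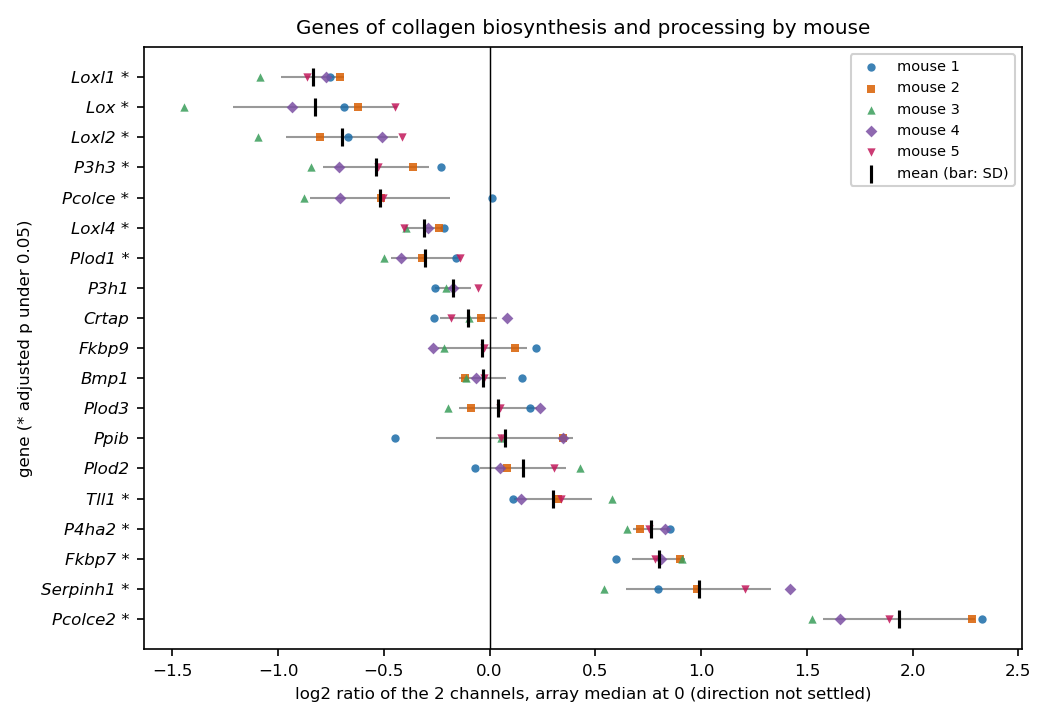
Log2 ratio of both channels (horizontal axis) in each mouse for the 19 measured genes of collagen biosynthesis and processing (vertical axis, ordered by mean), with the mean as a tick and 1 SD as a bar. Asterisks mark limma adjusted p under 0.05. Loxl1, Lox and Loxl2 lie at the low end and Pcolce2, at 1.94, at the high end.

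Of the 9 measured laminin chains, 5 (55.6%) passed above 0, beside 25.6% of everything tested above 0 and 49.7% on either side. Among those 5, only Lama4 also passed when more than 1.2-fold was required, and none passed with the pool as 1 mouse. The median of the 9 chains was 0.21, and by mouse it was 0.56, 0.18, 0.15, 0.016 and 0.18. Lama4, the alpha chain of endothelial basement membrane, stood at 1.31, 0.52, 1.34, 1.24 and 0.97. It lay above 0 in all mice, with a mean of 1.08 ± 0.34 (SD, n = 5; a 2.11-fold difference; limma adjusted p = 0.000568), but had adjusted p = 0.0991 with the pool as 1 mouse. Beside it, the endothelial markers Pecam1, Tek and Tie1 averaged 2.45, 1.53 and 0.88. Tie1 stood at 1.86, 1.01, 1.205, 0.09 and 0.24 in mice 1 to 5. Mice 4 and 5 were thus nearest to 0 for Tie1, as they were for Lama3 below but not for Lama4. The part of these markers in the laminin values was not tested.

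Lama3, the alpha chain of epithelial laminin, separated the mice. It stood at 1.61, 1.00 and 1.10 in mice 1 to 3 but at 0.016 and 0.15 in mice 4 and 5. The mean of 0.78 ± 0.67 passed (limma adjusted p = 0.028), and missed without mouse 1, 2 or 3 (adjusted p = 0.0616, 0.0827 and 0.0877) or with an ordinary one-sample test (adjusted p = 0.112). Lamb3, its beta partner, averaged 0.08 ± 0.35 and was high in mouse 1 alone, at 0.69. Lamb1, the beta chain of most laminins, was also high in mouse 1, at 0.74, and averaged 0.12 ± 0.39. Without mouse 1 both means turned negative, to −0.07 and −0.04. Across the family, 7 of 9 laminins had their highest value in mouse 1, beside 6 of 25 collagens and 2 of 15 integrin-named genes measured in that mouse. This difference was not tested, and the share among everything tested was not counted. Array 1 also had the widest spread of deposited values, with an SD of 0.59 against 0.49 to 0.53 on the other arrays.

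Smaller ratios above 0 belonged to Lamc3, Lama5 and Lama2. Lamc3, a gamma chain, stood at 0.56, 0.38, 0.56, 0.27 and 0.22 (mean 0.40 ± 0.16, limma adjusted p = 0.0033). Lama5, the alpha chain of adult epithelial and vascular basement membrane, stood at 0.12, 0.22, 0.15 and 0.39 in mice 1 to 4. Its mean of 0.22 ± 0.12 (n = 4; limma adjusted p = 0.041) no longer passed when mouse 2, 3 or 4 was left out (adjusted p from 0.076 to 0.126). Lama2, of muscle and nerve basement membrane, averaged 0.21 ± 0.09 (limma adjusted p = 0.0144). Lamc1, the gamma chain shared by most laminins, averaged −0.15 ± 0.09 (limma adjusted p = 0.0512) and Lama1, an embryonic alpha chain, −0.13 ± 0.03 (adjusted p = 0.05003). All mice lay below 0 for both. By limma Lama1 and Lamc1 missed the threshold. The ordinary one-sample test brought Lama1 past it (adjusted p = 0.00797), as did admitting every feature measured on 3 or more arrays (0.0486), and Lamc1 passed without mouse 1 (0.041).

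Of 18 further basement membrane genes listed from textbook roles, 13 were measured, with 3 below 0, 6 above 0, 4 not passing and a median of 0.13. The shares of everything tested were 24.1% below 0 and 25.6% above. Nid1, the nidogen that bridges laminin and type IV collagen, averaged −0.95 ± 0.32 (SD, n = 5; limma adjusted p = 0.000785) and elastin, Eln, the fibre protein of recoil, −0.79 ± 0.46. On the other side, netrin 4, Ntn4, which binds laminin gamma chains, averaged 1.66 ± 0.37 (limma adjusted p = 0.000131; adjusted p = 0.0378 with the pool as 1 mouse). Fibulin 1, Fbln1, averaged 1.54 ± 0.43. Nid2 averaged 0.13 and did not pass.

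Among integrins, the largest ratio belonged to Itgb4, the beta chain of the hemidesmosome receptor for laminin. It stood at −0.75, −0.50, −0.94, −0.70 and −0.69 in mice 1 to 5, below 0 in each, with a mean of −0.72 ± 0.16 (SD, n = 5; limma adjusted p = 0.000268; adjusted p = 0.0623 with the pool as 1 mouse). Of its hemidesmosome companions, its alpha partner Itga6 averaged −0.01 ± 0.15 and the transmembrane collagen Col17a1 0.15, and neither passed. Itgb4 was the only one of 4 measured beta chains to pass by limma. Itgb1, the partner of most alpha chains, averaged −0.17 ± 0.20 (limma adjusted p = 0.114), with values of −0.0095, −0.17, −0.17, −0.50 and −0.016. Its features averaged −0.28 and −0.04, and with the first alone, kept when values in all 5 mice were required, it passed (adjusted p = 0.0471). In a fit of single features that first feature missed the threshold (limma adjusted p = 0.0507). Itgb6, the epithelial subunit that pairs with Itgav to activate latent TGF-beta, averaged −0.15 ± 0.09 (limma adjusted p = 0.0591), with all mice below 0 at −0.08, −0.11, −0.31, −0.14 and −0.09. Its features averaged −0.20 (limma adjusted p = 0.0371 in a fit of single features) and −0.09 (0.156). Itgb2, the subunit of leukocyte integrins, averaged 0.09 ± 0.26.

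Alpha chains of stroma and epithelium lay near 0, with 2 of 5 above 0 and 0 below by limma (2 and 1 at an unadjusted p under 0.05). Of everything tested, 25.6% lay above and 24.1% below by limma. Itgav, the alpha chain of fibronectin and TGF-beta binding integrins, stood at 0.24, 0.15, 0.08, 0.32 and 0.35 (mean 0.23 ± 0.11, limma adjusted p = 0.0156). This call rests on 2 of its 3 features, which averaged 0.28 and 0.17 (limma adjusted p = 0.0091 and 0.117 in a fit of single features). The second of these lay below 0 in mice 2 and 3, at −0.074 and −0.012. The third, measured in 3 mice, averaged −0.37, and with it included the mean was 0.11 (adjusted p = 0.207). Itga2, a collagen receptor subunit, averaged 0.20 ± 0.11 (limma adjusted p = 0.0269) and no longer passed when mouse 1, 2, 4 or 5 was left out (adjusted p from 0.0503 to 0.0812). Itga3, a laminin receptor subunit of lung epithelium, was at 0.96 in mouse 3 and between 0.004 and 0.20 in the others, with a mean of 0.27 ± 0.39 that did not pass. Itga8, of myofibroblasts and smooth muscle, averaged −0.21 ± 0.18 (limma adjusted p = 0.0539), and passed at −0.27 without mouse 3 (adjusted p = 0.0203).

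Alpha chains of blood cells lay below 0 in 2 of 3 cases, beside 24.1% of everything tested below 0. Itgax, or CD11c, of dendritic cells and alveolar macrophages, stood at −0.48, −0.13, −0.61, −0.84 and −0.68 (mean −0.55 ± 0.27, limma adjusted p = 0.0041). Itga4, which binds VCAM1 and fibronectin on lymphocytes and monocytes, stood at −0.48, −0.50, −0.54 and −0.24 in mice 1, 3, 4 and 5 (mean −0.44 ± 0.14, n = 4; limma adjusted p = 0.0038). Itgam, or CD11b, of neutrophils and monocytes, averaged −0.03 ± 0.04, with values between −0.07 and 0.04. Beside these, 2 of 3 leukocyte markers, 1 of 3 neutrophil markers and 2 of 3 platelet markers passed below 0, and 0 of 4 T cell markers passed on either side by limma (0 at an unadjusted p under 0.05). Macrophage markers had medians of −2.46, −0.86, −0.68, −0.94 and −1.74 in mice 1 to 5, although Mrc1 of that list lay above 0 in each of the 4 mice measured, between 0.393 and 0.988. Their part in the integrin values was not tested.

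The symbol pattern also took genes that are no classical integrin subunits. Itgbl1, a secreted protein with integrin-like EGF repeats, was above 0 and alike in all 4 mice measured, at 0.26, 0.25, 0.30 and 0.26 (mean 0.27 ± 0.02; limma adjusted p = 0.0085). Itgb1bp1, which binds the tail of integrin beta 1, averaged −0.09 ± 0.27, and Itgb2l, a close relative of Itgb2, 0.02 ± 0.17. Neither passed.

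**Figure D4:**
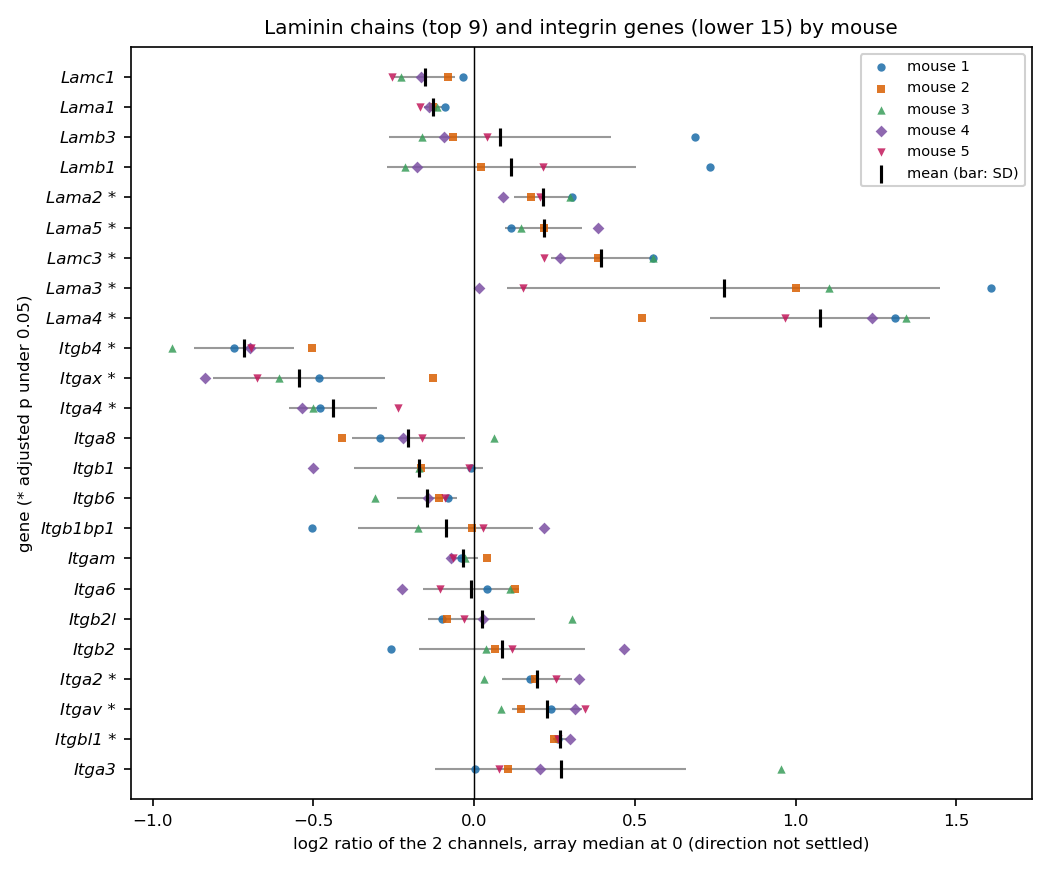
Log2 ratio of both channels (horizontal axis) in each mouse for 9 laminins (upper rows) and 15 integrin-named genes (lower rows), with the mean as a tick and 1 SD as a bar. Asterisks mark limma adjusted p under 0.05. Mouse 1 is the highest for Lama3, Lamb1 and Lamb3, and all mice lie below 0 for Itgb4.

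Other genes around the integrins lay on both sides, as did everything tested (24.1% below 0 and 25.6% above by limma). Of 26 listed ligands outside the collagens and laminins, 14 were measured, with 2 below 0, 7 above 0 and a median of 0.29. Tenascin C, Tnc, averaged −0.94 ± 0.27 and Vcam1, the ligand of Itga4, −0.77 ± 0.34, while Icam2, a ligand of leukocyte integrins on endothelium, averaged 1.10 ± 0.40 and periostin, Postn, 1.06 ± 0.14. Of 33 listed adaptors and focal adhesion genes, 17 were measured, with 5 below 0, 6 above 0 and a median of 0.11. Apbb1ip, which recruits talin to integrins in blood cells, averaged −1.27 ± 0.38 and the actin cross-linker Actn4 −0.54 ± 0.26, against 1.11 ± 0.37 for tensin 1, Tns1, and 1.03 ± 0.11 for Lims2. Of 16 other collagen and laminin receptors listed, 9 were measured, with 3 below 0, 5 above 0 and a median of 0.28. Lair1, an inhibitory collagen receptor of leukocytes, averaged −0.72 ± 0.10 and Ddr2, a collagen-activated kinase of mesenchyme, −0.42 ± 0.39. The scavenger receptor Cd36 averaged 1.45 ± 0.50 and syndecan 2, Sdc2, 1.18 ± 0.28. With the pool as 1 mouse, Postn, Lims2 and Lair1 passed among the genes named in this paragraph.

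For chains that assemble into 1 molecule, the log ratios were compared within each array, which removes the centring but not the shared pool. Each difference is between 2 ratios and does not say which chain has more RNA. Of 41 listed pairs, 21 were measured, and 13 had the same sign in every mouse measured, among them Col9a1 minus Col9a2 with 3 mice. How often other pairs of genes keep 1 sign was not counted. Of everything tested singly, 57.3% lay on 1 side of 0 in every measured mouse. An exact two-sided sign-flip permutation test cannot go below p = 0.0625 with 5 mice, 0.125 with 4 or 0.25 with 3. No pair could therefore pass. The smallest p adjusted over the 21 pairs was 0.146. Within laminins, Lama4 exceeded Lamc1 by 1.23 ± 0.37 on the log2 scale (95% interval 0.77 to 1.69; 5 of 5 mice) and Lama2 exceeded it by 0.37 ± 0.12 (5 of 5 mice). Lama3 exceeded Lamb3 by 0.695 ± 0.55 (95% interval 0.015 to 1.37), also in 5 of 5 mice. Within integrins, Itga6 exceeded Itgb4 by 0.71 ± 0.22 (95% interval 0.43 to 0.98) and Itgav exceeded Itgb6 by 0.37 ± 0.08 (0.27 to 0.48), each in 5 of 5 mice. With every feature measured on 3 or more arrays admitted, Itgav exceeded Itgb6 by 0.25, outside that interval. Itgax lay under Itgb2 in 5 of 5 mice, by −0.63 ± 0.46. Col6a2 lay under Col6a3 in 4 of 5 mice, by −0.55 ± 0.43 (95% interval −1.08 to −0.012). Col5a1 and Col5a2 differed by −0.24 ± 0.21 (95% interval −0.50 to 0.03, 4 of 5 mice). Col6a1 and Col6a2 differed by 0.20 ± 0.35 (−0.23 to 0.64, 3 of 5 mice), and Col6a1 and Col6a3 by −0.34 ± 0.60 (−1.08 to 0.40, 4 of 5 mice). Itga8 and Itgb1 differed by −0.03 ± 0.27 (−0.37 to 0.30). An interval that includes 0 does not show that the chains of a pair moved alike. The intervals were not adjusted over the 21 pairs, and whether they include 0 is no test. Col6a2 minus Col6a3 and Col5a1 minus Col5a2 shared an exact sign-flip p of 0.125.

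**Figure D5:**
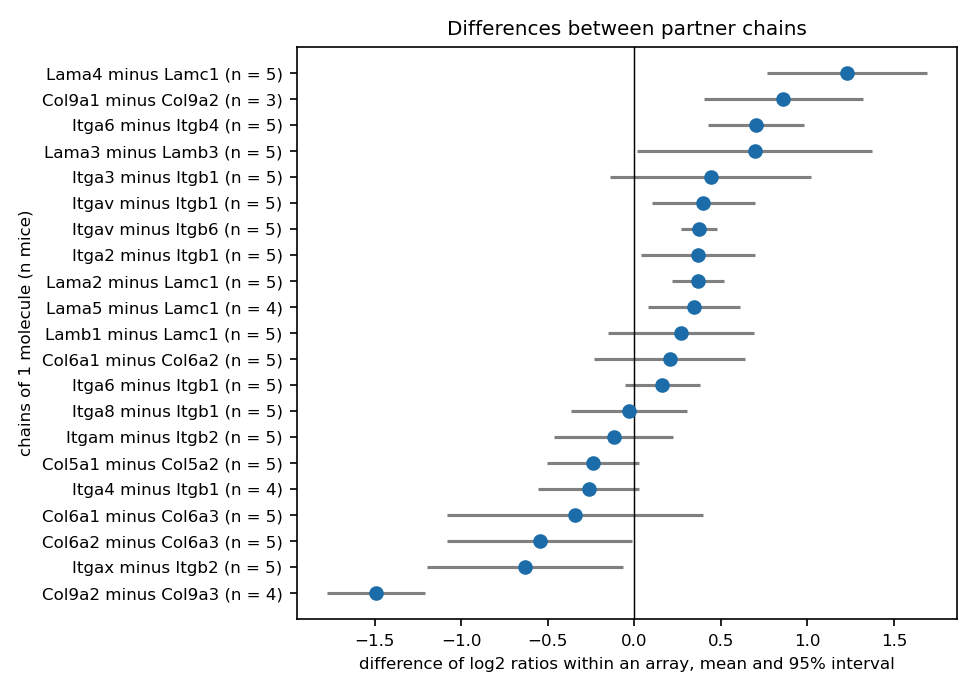
Mean difference of the log2 ratios of partner chains within an array (horizontal axis) for 21 pairs (vertical axis, first minus second chain, n mice in brackets), with 95% intervals from the spread between mice. Lama4 minus Lamc1 lies at 1.23 at the top and Col9a2 minus Col9a3 at −1.49 at the bottom.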

How the data were processed

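Expression was measured on 5 two-channel arrays, 1 for each of 5 bleomycin-treated mice against 1 common control pool. The authors deposited 1 log ratio per feature and array, used here as log2 ratios. The sources used here name no scanner, normalization or build. The deposited medians lay between 0.011 and 0.026. Of 17280 features, 2809 had no value, and the 10702 with values on at least 4 arrays were kept. Each array was centred on the median of these. Symbols came from the platform annotation (14722 features with 1, 1 with several, 2557 with none), those of non-members updated by gene identifier through RefSeq (GRCm38.p6, 14445 matches). Features of 1 symbol were averaged.

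limma 3.58.1 (R 4.3.3) fitted an intercept-only model with empirical Bayes moderation, two-sided, after checks on simulated data. The simulated arrays shared no pool, so these checks do not cover calls that arise from the shared pool. Partner chains were compared with an exact sign-flip permutation test. Named members were, per role, up to 4 on each side past the threshold by size, besides Col1a1, Col1a2, Col3a1, Itgb1, Itgb6 and Itgav, and the others by mean, with up to 2 genes a side from each partner list. P4ha2, Fkbp7, Loxl2 and Nid2 were named beside this rule, after their values were seen. Members, lists and alternatives were chosen with earlier results of these data known. Alternatives changed the centring, the feature minimum, averaging, moderation, the pool's spread, the size required and the mice included.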

Additional observations from a re-analysis of the deposited data

Results flagged for a closer look

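In 5 of the 51 members, 1 mouse stood apart from the others by Dixon's criterion at the 95% level. Chance alone is expected to set off about 1 in 20 such groups, so some of these are expected by chance. Col3a1 stood at −1.02 in mouse 2, against −1.37 to −1.35 in the other mice. Col27a1 stood at 0.499 in mouse 4, against 0.125 to 0.225. Itgb6 stood at −0.309 in mouse 3, against −0.144 to −0.08. Itga3 stood at 0.955 in mouse 3, against 0.004 to 0.205. Lamb3 stood at 0.686 in mouse 1, against −0.161 to 0.041.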

How the results depend on the processing

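Leaving out the centring, taking the median of features, the feature minimum and the ordinary one-sample test kept each count of calls within 1.5 times its value. With the pool treated as a single control mouse, 499 of 10081 passed (210 below 0, 289 above 0) and 4 of 51 members, with 4 below 0 and 0 above. By limma without this change, 11 members lay above 0. In that setting 4 genes of collagen biosynthesis and processing passed, and 1 each of the basement membrane genes, ligands, adaptors and other receptors. Requiring more than 1.2-fold left 1855 (822 below, 1033 above) and 10 members, 2 of them above 0. It left 7 biosynthesis genes, 6 of the 9 basement membrane genes, 4 ligands, 5 adaptors and 3 other receptors.

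Without 1 mouse in turn, 19 to 22 members passed, 12 to 13 below 0 and 7 to 9 above 0, with 7 above 0 without mouse 2 or mouse 4. Of the 23 calls, 17 held without each mouse, and the 6 that did not were Col26a1, Col27a1, Itga2, Itgav, Lama3 and Lama5. With the ordinary one-sample test, Col6a1, Col27a1, Lama3 and Lama5 missed the threshold. Means of members near 0 changed side: Col1a1 from −0.179 to 0.129, Col4a2 from −0.102 to 0.052, Col13a1 from −0.027 to 0.0897, Col23a1 from −0.235 to 0.0795, Lamb1 from −0.0395 to 0.198 and Lamb3 from −0.0695 to 0.142. Among integrin-named genes these were Itga6 from −0.045 to 0.043, Itgb2 from −0.0095 to 0.172, Itgb2l from −0.047 to 0.054 and Itgb1bp1 from −0.165 to 0.016, and the difference Itga8 minus Itgb1 ran from −0.111 to 0.0302. Without centring, Col4a2 stood at 0.0074 and Itga6 at 0.0076. The causes were not tested. No paired analysis was possible because the arrays form 1 group. Signal over background is unknown, which limits what genes near 0 can show.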

Other observations

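Several basement membrane and receptor genes had values on 1 to 3 arrays and entered no test. Col4a5, a chain of alveolar basement membrane collagen, stood at 0.675 and 0.749 in mice 3 and 4. Lamb2, a beta chain of mature laminins, stood at 0.274, 0.44 and 0.52 in mice 2 to 4, and Col4a1, the partner of Col4a2, at 0.132, 0.151 and 0.112 in mice 1, 3 and 4. Itga9, which binds tenascin C and is needed for lymphatic valves, stood at 1.33 in mouse 1, 0.274 in mouse 4 and 0.059 in mouse 5. Itga5, the fibronectin receptor subunit, stood at 0.061, −0.076 and 0.096 in mice 2, 4 and 5, and Col10a1, of growth plate cartilage, at −0.02, −0.184 and −0.1 in the same mice. Col20a1 stood at 0.043, 0.035 and −0.074 in mice 1, 4 and 5, and Itga2b, the platelet fibrinogen receptor subunit, at 0.005 and −0.07 in mice 4 and 5. Values on a single array were −0.632 for Col22a1 and −0.075 for Itga7 in mouse 1, −0.26 for Col11a1 and −0.106 for Col24a1 in mouse 2, −0.119 for Itgae in mouse 3 and −0.076 for Itgb3 in mouse 4.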
